A study of Mus musculus with 22 samples.

Results

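Rods at postnatal day 13 (P13) were set against rods at postnatal day 7 (P7), the interval in which the mouse rod extends its outer segment and builds its synapse. The comparison took 4 of the 22 libraries of the series, 2 of rods at P13 and 2 of rods at P7, chosen by the age and cell type in the sample labels, and all genes of the deposited table. All libraries came from mouse retina, from cells collected by sorting, and RNA was amplified linearly before library preparation. Strain, genotype, sex, the reporter or antibody used for sorting and the number of animals behind a library were not stated in the labels used here. Cones and bipolars of the same ages, 2 libraries per group, served to ask where the change in rods differed from that in other cells. Whether replicate libraries came from different animals is not stated, so the p-values measure a spread between libraries that may be technical. That spread was shared over all 11 groups of the series and not taken from the 4 rod libraries alone.

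A rod carries its light-sensing proteins in the outer segment, a stack of membrane discs that grows from a modified primary cilium. Light activates the visual pigment, which activates transducin, the G protein whose alpha subunit opens the way to a cGMP phosphodiesterase. The fall in cGMP closes a cation channel in the plasma membrane, and calcium-dependent proteins then switch the cascade off and restore cGMP. At the other end of the cell, a single large synapse with a ribbon releases glutamate onto rod bipolar and horizontal cells. In the mouse, discs are stacked and ribbon synapses become complete in the second postnatal week, around the time the eyes open.

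The P13 libraries held 31.4 and 48.5 megareads over the genes of the table, and the P7 libraries 47.3 and 40.8 megareads. Levels are given as CPM, reads scaled to the effective library size, recovered from the deposited log2 values, and are compared between libraries and not between genes, since no gene length enters them. Over 13405 genes, replicates correlated at Pearson's r of 0.851 at P13 and 0.894 at P7, and the median SD of the 2 log2 values of a gene was 0.49 at P13 and 0.31 at P7. The P13 value was the largest of the 11 groups. Mitochondrial genome transcripts made up 7.02% and 6.82% of reads at P13 and 2.83% and 2.55% at P7.

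The libraries carried the genes that define rods at both ages. Nrl, the leucine zipper factor that sets rod fate, stood at 672 and 706 CPM at P13 and at 914 and 1196 CPM at P7. Nr2e3, its orphan receptor partner, stood at 1925 and 2276 CPM at P13 and at 3162 and 3547 CPM at P7. The mature rod marker Gnat1 was high at P13 and low at P7, and the immature neuron marker Stmn1 was low at P13 and high at P7, as detailed below. Markers of other cells were present, and some summed levels differed with age. The 14 cone phototransduction genes summed to 158 and 263 CPM at P13 and to 718 and 787 CPM at P7. Most of the P7 sum was Gngt2, with 319 and 265 CPM, and Gnb3, with 295 and 408 CPM. By contrast, Arr3 had 0.0201 and 0.614 CPM and Pde6h 1.00 and 1.42 CPM in rods at P7. In cones at P7, Arr3 and Pde6h stood at 2159 ± 266 and 3019 ± 184 CPM (SD, n = 2 libraries). Gngt2 and Gnb3 stood there at 1369 ± 7.61 and 1384 ± 259 CPM. The median log2 change of the 14 genes was 1.23, so the sum and the median went opposite ways. The 24 pan-bipolar genes summed to 1804 and 1933 CPM at P13 and to 2496 and 2422 CPM at P7. These sums rest on part of the list. Among the 24, 7 and 7 had no reads in the P13 libraries, and 11 and 6 had none in the P7 libraries. The 20 Müller glia genes summed to 422 and 449 CPM at P13 and to 305 and 373 CPM at P7. The part of these cells in the results below was not tested, and in bulk RNA a change in the number of cells of a type and a change in RNA per cell cannot be told apart.

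Of 13405 genes tested with limma, 1695 (12.6%) were called between P13 and P7, 754 of them higher (5.62%) and 941 lower (7.02%) at P13. Called means a Benjamini-Hochberg adjusted p below 0.05, with all 13405 genes in the adjustment, together with a log2 fold change of 1 or more in either direction. The libraries of the 2 ages did not overlap for 1691 of the 1695, nor for 43.8% of all genes tested. A further 502 genes passed the adjusted p with a smaller change. Of the genes called lower, 141 had no reads at P13, and of those called higher, 69 had no reads at P7. The median log2 change over all genes tested was 0.00 on the deposited scale. With plain read totals it was -0.29, and the calls then split into 470 higher and 1529 lower. Without rods P13 replicate 1 the number called was 2742, and without rods P7 replicate 2 it was 1036. When the 4 rod libraries were fitted alone, with 2 residual degrees of freedom, no gene was called by limma (lowest adjusted p 0.143), 1923 genes had an unadjusted p under 0.05, and voom on the recovered reads of all 22 libraries called 2025. All calls named below therefore rest on the spread shared with the other groups. Rods at P13 had the largest median SD of the 11 groups, 0.49. The shared spread can therefore understate theirs, and the p-values can be too low. With array quality weights 326 genes were called, and 50 of the 97 called genes named below were among them.

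**Figure D1:**
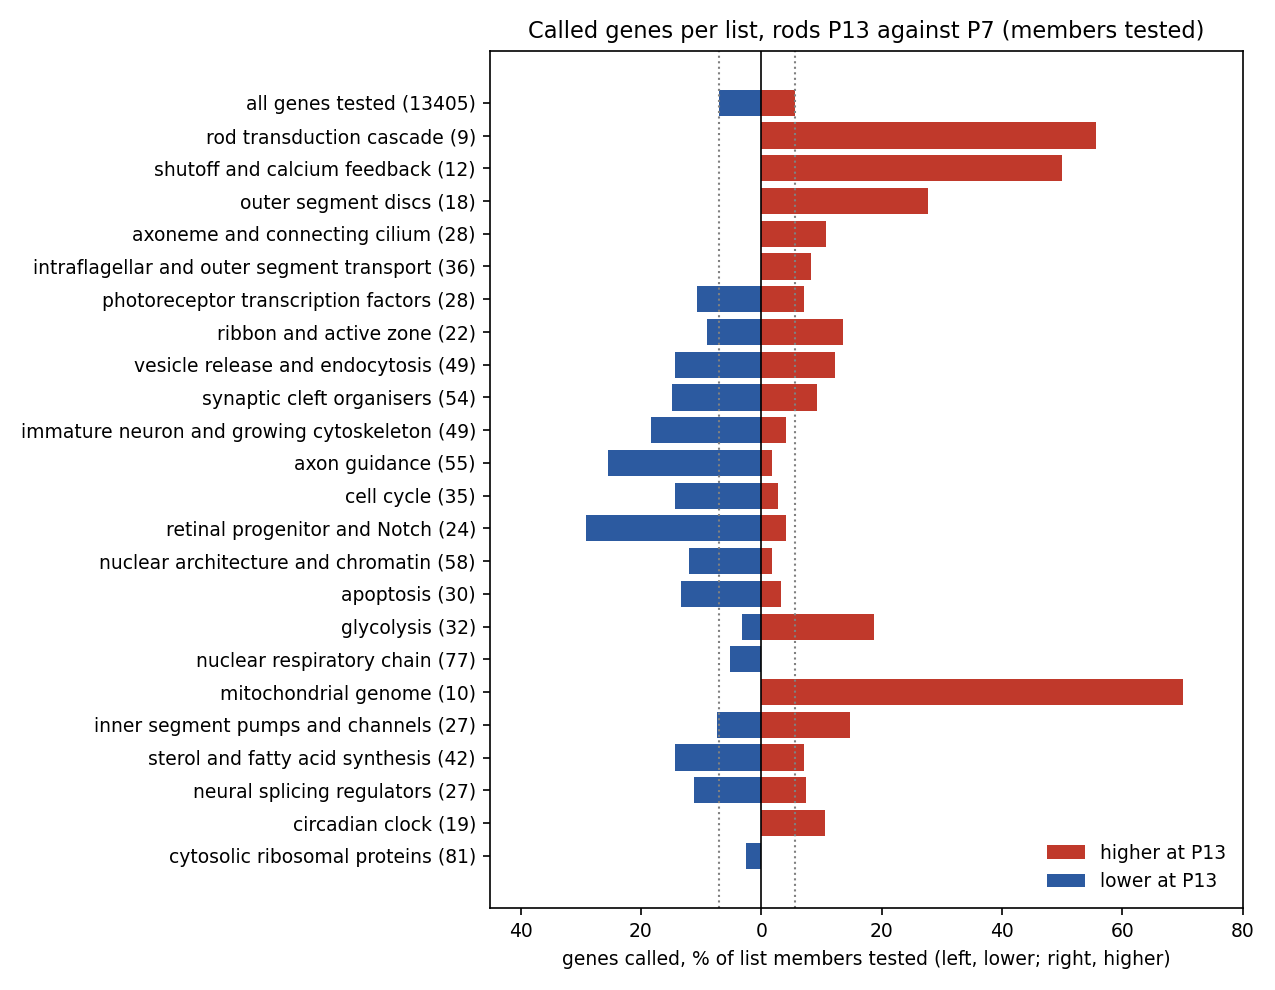
Share of the tested members of each gene list drawn that was called, as a percentage of list members, with the number tested in brackets. Red to the right is higher at P13, and blue to the left is lower at P13. The lists of other cell types and of immediate early and stress genes are not drawn. Dotted lines mark the shares over all genes, 5.62% higher and 7.02% lower; the transduction, shutoff and mitochondrial genome lists lie far to the right, and the guidance and progenitor lists to the left.

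Of 9 genes of the rod transduction cascade, 5 were called higher at P13 (55.6%) and none lower, beside 5.62% and 7.02% of all genes. Their median log2 change was 1.45, beside 0.00 over all genes tested. At an unadjusted p under 0.05, 7 were higher and 0 lower, and voom called 6 higher and 0 lower. Quantile normalization left 3 called higher and array quality weights 1. Gnat1, the rod transducin alpha subunit (chr9:107674474-107679712, minus strand, GRCm38), had 4581 and 5181 CPM at P13, against 108 and 140 CPM at P7. Both P13 libraries lay far above both P7 libraries, a 39.5-fold difference of the means. The log2 fold change was 5.31 ± 0.32 (SE, adjusted p = 1.08e-07), and it was called in all 13 alternatives other than the fit of the 4 rod libraries alone. Pde6a, the alpha catalytic subunit of the phosphodiesterase, had 1428 and 1351 CPM at P13, against 248 and 213 CPM at P7. It rose by 2.60 ± 0.48 on the log2 scale (adjusted p = 0.00223). Gngt1, the transducin gamma subunit of rods, had 8657 and 13140 CPM at P13, against 3195 and 2629 CPM at P7. Its libraries did not overlap, and it rose by 1.88 ± 0.33 (adjusted p = 0.00149). Pde6g, the inhibitory gamma subunit of the phosphodiesterase, had 5055 and 7286 CPM at P13, against 2769 and 2029 CPM at P7, with a log2 fold change of 1.36 ± 0.34 (adjusted p = 0.0143). The Pde6g call ended without rods P13 replicate 2 (1.09, adjusted p = 0.0952), without rods P7 replicate 2 (1.13, adjusted p = 0.119) and with quantile normalization (0.58, adjusted p = 0.264).

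The other subunits tested were not called. Pde6b, the beta catalytic subunit, had 3648 and 4441 CPM at P13, against 2605 and 2421 CPM at P7, a log2 change of 0.68 ± 0.38 that was not called (adjusted p = 0.254). With quantile normalization its estimate was -0.04. Cnga1, the alpha subunit of the cGMP-gated channel, had 2877 and 4248 CPM at P13, against 1247 and 1318 CPM at P7. The libraries of the 2 ages did not overlap, but 1.45 ± 0.60 did not pass the test (adjusted p = 0.114). It did so in voom on the recovered reads (adjusted p = 2.07e-05). Cngb1, the beta subunit of the same channel, had 1219 and 1084 CPM at P13, against 889 and 878 CPM at P7, and 0.38 ± 0.33 was not called. Gnb1, the transducin beta subunit of rods, had 5567 and 5720 CPM at P13, against 2794 and 2872 CPM at P7. Its log2 change of 0.99 ± 0.26 passed the adjusted p (0.0167) and missed the fold threshold, which it passed without rods P13 replicate 1 (1.014) and without mitochondrial genome transcripts (1.06). With array quality weights the calls of Pde6a, Gngt1 and Pde6g ended.

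**Figure D2:**
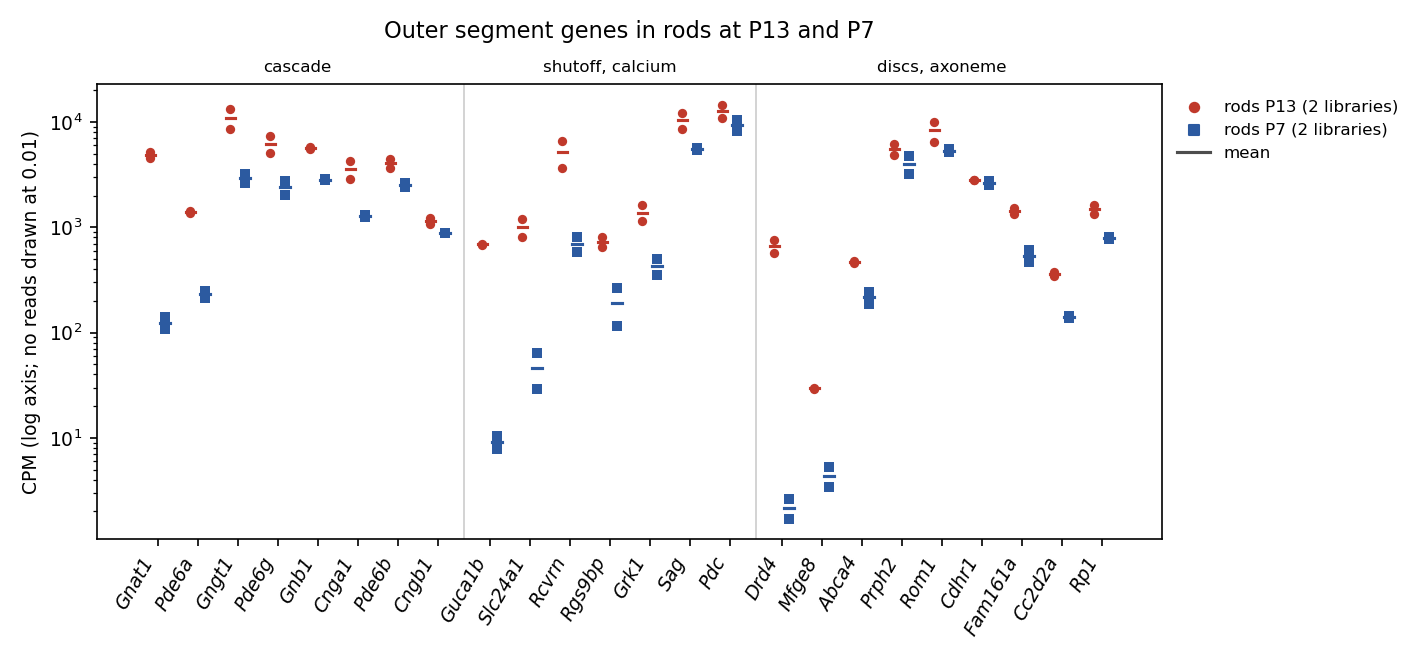
CPM (log axis) of outer segment genes in each rod library, with P13 (red circles) left of P7 (blue squares) and bars at the mean of 2 libraries. Gnat1, Guca1b and Drd4 are separated by more than a factor of 10, whereas Cngb1, Pdc, Prph2 and Cdhr1 lie close together at both ages.

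Of 12 genes that end the light response and restore calcium, 6 were called higher at P13 (50%) and none lower. Of all genes, 5.62% were called higher and 7.02% lower. The median log2 change of the 12 was 1.83. At an unadjusted p under 0.05, 8 were higher and 0 lower, and voom called 7 and 0. Quantile normalization gave 6 called higher and 1 lower, and array quality weights 2 higher. Guca1b, a calcium-sensing activator of guanylate cyclase (chr17:47385393-47392967, plus strand, GRCm38), had 676 and 696 CPM at P13, against 7.80 and 10.4 CPM at P7. The replicates of each age were close, and the means differed 75.3-fold. The log2 fold change was 6.25 ± 0.49 (adjusted p = 9.77e-07), called in all 13 alternatives other than the 4-library fit. Slc24a1, the rod sodium, calcium and potassium exchanger that removes calcium from the outer segment, had 1195 and 805 CPM at P13, against 63.6 and 28.8 CPM at P7. It rose by 4.52 ± 1.26 (adjusted p = 0.024), with a large error. Its call ended without rods P13 replicate 1 (4.23, adjusted p = 0.0698), without rods P13 replicate 2 (4.80, adjusted p = 0.059) and without rods P7 replicate 2 (3.95, adjusted p = 0.149). Rcvrn, the calcium sensor recoverin that restrains Grk1, had 3688 and 6601 CPM at P13, against 799 and 588 CPM at P7. It rose by 2.85 ± 0.44 (adjusted p = 0.00061).

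Rgs9bp, which anchors the complex that speeds GTP hydrolysis on transducin, had 804 and 651 CPM at P13, against 263 and 115 CPM at P7. It rose by 2.05 ± 0.27 (adjusted p = 0.000176). Rgs9, the catalytic member of that complex, did not follow it. Its level was 29.5 and 19.8 CPM at P13 and 24.7 and 47.9 CPM at P7, with overlapping libraries and a change of -0.51 ± 0.91. Grk1, the kinase that phosphorylates the active pigment, had 1622 and 1133 CPM at P13, against 495 and 355 CPM at P7. It rose by 1.69 ± 0.34 (adjusted p = 0.00369). Sag, the rod arrestin that caps the phosphorylated pigment, had 8624 and 12166 CPM at P13, against 5645 and 5369 CPM at P7. The change of 0.90 ± 0.32 was not called (adjusted p = 0.0697). It was called higher without rods P13 replicate 1 (1.14, adjusted p = 0.0438), and its estimate was -0.97 with quantile normalization (adjusted p = 0.0439, under the fold threshold). Pdc, phosducin, which binds transducin beta and gamma subunits, had 10918 and 14546 CPM at P13 and 10328 and 8284 CPM at P7, a change of 0.45 ± 0.38 that was not called. With quantile normalization Pdc was called lower (-1.33, adjusted p = 0.0252). The calls of Slc24a1, Rcvrn and Grk1 ended with array quality weights.

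Of 18 genes tested in the outer segment disc list, 5 were called higher (27.8%, beside 5.62% of all genes) and none lower. Their median log2 change was 0.77. The list is broader than disc proteins, and the called Drd4 and Mfge8 have the other roles given below. Prph2, Rom1 and Cdhr1 of the disc rim and base were not called. At an unadjusted p under 0.05, 9 were higher and 1 lower, and voom called 6 higher and 0 lower. Plain totals and quantile normalization each gave 2 called higher and 1 lower, and array quality weights 2 higher. Drd4, the dopamine D4 receptor that lowers cAMP in photoreceptors (chr7:141292006-141296464, plus strand, GRCm38), had 564 and 749 CPM at P13, against 2.63 and 1.71 CPM at P7. Its means differed 303-fold, with a log2 fold change of 8.26 ± 0.61 (adjusted p = 6.30e-07), called in all 13 alternatives other than the 4-library fit. Mfge8, a phosphatidylserine-binding ligand in the uptake of shed discs by the pigment epithelium, had 29.2 and 29.9 CPM at P13, against 3.41 and 5.28 CPM at P7. It rose by 2.80 ± 0.37 (adjusted p = 0.000146). Abca4, the disc-rim flippase that clears retinal conjugates, had 477 and 459 CPM at P13, against 244 and 188 CPM at P7. It rose by 1.13 ± 0.21 (adjusted p = 0.00242), close to the fold threshold. Its call ended without rods P7 replicate 2 (0.94), with plain totals (0.80) and with quantile normalization (0.84).

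The genes of disc rim and disc-forming proteins were abundant at both ages. Prph2, the tetraspanin that bends the disc rim, had 4878 and 6123 CPM at P13 and 3218 and 4727 CPM at P7, a change of 0.49 ± 0.32 that was not called. Its partner Rom1 had 6495 and 10088 CPM at P13 and 5489 and 5187 CPM at P7, a change of 0.60 ± 0.20 (adjusted p = 0.0548). Cdhr1, a cadherin at the base where discs form, had 2780 and 2785 CPM at P13 and 2733 and 2529 CPM at P7, a change of 0.08 ± 0.16. With quantile normalization these 3 estimates were -0.58, -0.86 and -0.47, of which that of Rom1 passed the adjusted p (0.00282) under the fold threshold, and that of Cdhr1 was -0.25 with plain totals. Rbp3, the retinoid carrier secreted around the outer segments, had 1258 and 852 CPM at P13 and 1868 and 1724 CPM at P7. The change of -0.79 ± 0.25 (adjusted p = 0.041) was under the fold threshold, and it was called lower without rods P13 replicate 1 (-1.07), with plain totals (-1.13) and with quantile normalization (-1.0).

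In the cilium that carries the outer segment, 3 of 28 axoneme and connecting cilium genes and 3 of 36 transport genes were called higher and none lower. These shares are nearer to the 5.62% of all genes than those of the cascade. At an unadjusted p under 0.05, 9 axoneme genes were higher and 2 lower and 13 transport genes higher and 3 lower, and voom called 1 transport gene and no axoneme gene lower. Plain totals gave 3 axoneme genes higher and 1 lower, with 0 transport genes higher and 2 lower. With quantile normalization 3 axoneme genes and 1 transport gene were called, all higher, and with array quality weights 0 of either list. Fam161a, a microtubule protein of the connecting cilium, had 1513 and 1329 CPM at P13, against 604 and 470 CPM at P7, and rose by 1.41 ± 0.26 (adjusted p = 0.00214). Cc2d2a, of the transition zone that gates the cilium, had 373 and 347 CPM at P13, against 145 and 137 CPM at P7, and rose by 1.35 ± 0.21 (adjusted p = 0.000581). Bbs5, a subunit of the BBSome cargo coat, had 331 and 336 CPM at P13, against 139 and 132 CPM at P7. It rose by 1.30 ± 0.22 (adjusted p = 0.00125), or 0.97 and not called with plain totals. Rp1, the axonemal microtubule protein that aligns discs, had 1624 and 1331 CPM at P13 and 801 and 769 CPM at P7. Its libraries did not overlap, and 0.91 ± 0.42 was not called (adjusted p = 0.162). Rpgr, a guanine exchange factor homologue of the connecting cilium, had 384 and 312 CPM at P13 and 228 and 142 CPM at P7, a change of 0.95 ± 0.25 under the fold threshold (adjusted p = 0.0195). It was called without rods P13 replicate 2 (1.10), without rods P7 replicate 1 (1.29) and without mitochondrial genome transcripts (1.01). Tulp1, which aids protein traffic to the outer segment, had 135 and 165 CPM at P13 and 212 and 423 CPM at P7, a change of -1.01 ± 0.42 that was not called (adjusted p = 0.122) except with plain totals (-1.34). Under array quality weighting, Abca4, Fam161a, Cc2d2a and Bbs5 were no longer called.

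The upstream sequences of 4 called genes, of the outer segment, the synapse and the fate factors, are shown because CRX and NRL, the photoreceptor factors, are known to read short core motifs. Of the genes tested, 10409 matched an entry of the RefSeq promoter table (build GRCm38.p6) by symbol. Each run holds the 250 bases before the start given by RefSeq, without the bases that lie inside the gene as the GENCODE M21 annotation places it, which leaves 238 for Drd4 and 233 for Abca4. It is written 5′ to 3′ in the direction of the gene, and capitals mark TAATCC or TGCTGA in either orientation (GGATTA and TCAGCA when reversed). Drd4 (chr7:141291768-141292005), Abca4 (chr3:122044210-122044442) and Slc17a7 (chr7:45163671-45163920) lie on the plus strand and were higher at P13. Neurod4 (chr10:130280255-130280504) lies on the minus strand and was lower at P13.
Drd4: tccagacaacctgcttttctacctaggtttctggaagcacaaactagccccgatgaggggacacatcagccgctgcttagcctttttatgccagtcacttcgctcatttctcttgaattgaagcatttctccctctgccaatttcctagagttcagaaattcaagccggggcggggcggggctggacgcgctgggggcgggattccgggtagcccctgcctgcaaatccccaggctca
Abca4: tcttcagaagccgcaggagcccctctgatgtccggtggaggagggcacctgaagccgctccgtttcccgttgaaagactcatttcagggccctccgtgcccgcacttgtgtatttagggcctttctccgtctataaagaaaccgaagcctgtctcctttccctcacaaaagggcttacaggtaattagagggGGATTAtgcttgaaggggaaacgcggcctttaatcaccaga
Slc17a7: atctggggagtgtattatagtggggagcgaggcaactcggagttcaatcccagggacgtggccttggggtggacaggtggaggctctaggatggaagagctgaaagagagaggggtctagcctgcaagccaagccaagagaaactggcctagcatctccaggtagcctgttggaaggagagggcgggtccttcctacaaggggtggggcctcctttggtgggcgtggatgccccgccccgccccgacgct
Neurod4: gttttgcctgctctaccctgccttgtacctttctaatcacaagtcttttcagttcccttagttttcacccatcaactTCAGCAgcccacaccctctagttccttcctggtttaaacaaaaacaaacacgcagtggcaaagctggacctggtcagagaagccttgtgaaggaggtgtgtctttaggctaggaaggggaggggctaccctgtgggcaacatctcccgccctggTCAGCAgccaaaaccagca
Abca4 held 1 TAATCC match, Neurod4 held 2 TGCTGA matches, and Drd4 and Slc17a7 held neither. No match overlapped another. In the whole windows of 250 bases, TAATCC was found on either strand in 6.28% of 557 genes called higher, in 4.94% of 729 called lower and in 5.28% of all 10409. TGCTGA was found in 13.8% of the genes called higher, in 11.5% of those called lower and in 12.5% of all. The shares lay close together, and a match is a description of letters and not of binding.

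Among photoreceptor transcription factors, 2 of 28 were called higher (7.14%) and 3 lower (10.7%), with a median log2 change of -0.48. These shares lie near the 5.62% and 7.02% of all genes. The factors that set rod fate were not called. Nrl changed by -0.60 ± 0.40 (adjusted p = 0.341) and Nr2e3 by -0.68 ± 0.54 (adjusted p = 0.436), with no overlap of the P13 and P7 values given above. Crx, the homeobox factor shared by rods and cones, had 1883 and 2061 CPM at P13 and 2904 and 2575 CPM at P7. Its change of -0.47 ± 0.14 passed the adjusted p (0.0291) and missed the fold threshold. Otx2, which acts above Crx, had 1450 and 1556 CPM at P13 and 2167 and 2066 CPM at P7, a change of -0.49 ± 0.15 (adjusted p = 0.0329). Neurod1, a bHLH factor kept by photoreceptors, went the other way in estimate, with 4446 and 4633 CPM at P13 and 3311 and 2530 CPM at P7. Its 0.65 ± 0.19 (adjusted p = 0.0331) was under the fold threshold and was -0.31 with quantile normalization.

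The called factors included 2 with roles in other retinal cells and a nuclear receptor. Rxrg, a retinoid receptor used by developing cones, had 0 and 0.0252 CPM at P13, against 27.0 and 52.5 CPM at P7. Only 1 read was counted over both P13 libraries, and the ratio of P7 over P13 was 2673 (95% interval 479 to 105597, counting error only). Neurod4, a bHLH factor of bipolar precursors, had 2.88 and 0 CPM at P13, against 32.3 and 45.8 CPM at P7. It fell by 8.05 ± 1.65 on the log2 scale (adjusted p = 0.00423), a size that depends on the floor set for the library without reads. Esrrg, an orphan receptor that drives genes of energy metabolism, had 258 and 143 CPM at P13, against 83.8 and 56.4 CPM at P7. It rose by 1.48 ± 0.31 (adjusted p = 0.00453), and the call ended without rods P7 replicate 2 (1.20, adjusted p = 0.0596). Weighting the libraries by quality ended the calls of Rxrg and Esrrg.

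At the ribbon and active zone, 3 of 22 genes were called higher (13.6%) and 2 lower (9.09%), beside 5.62% and 7.02% of all genes. The median log2 change was 0.46. Cabp4, the calmodulin-like partner of the ribbon calcium channel, had 270 and 360 CPM at P13, against 55.1 and 39.99 CPM at P7, and rose by 2.73 ± 0.76 (adjusted p = 0.0233). Its libraries were well apart, but the call ended without rods P13 replicate 2 (2.52, adjusted p = 0.0941), without rods P7 replicate 1 (2.96, adjusted p = 0.0547) and without rods P7 replicate 2 (2.50, adjusted p = 0.128). Rims2, an active zone scaffold, had 26.9 and 23 CPM at P13, against 3.91 and 6.03 CPM at P7. It rose by 2.36 ± 0.61 (adjusted p = 0.0165), and the call ended without rods P7 replicate 1 (2.04, adjusted p = 0.0849).

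The core ribbon genes were not called. Cacna1f, the pore subunit of that channel, had 154 and 151 CPM at P13 and 112 and 106 CPM at P7, a change of 0.49 ± 0.18 (adjusted p = 0.0773). Ctbp2, whose gene also encodes the ribbon protein RIBEYE, had 381 and 226 CPM at P13 and 323 and 318 CPM at P7, with the P7 values between the P13 values. Its change was -0.13 ± 0.25, and 0.25 without rods P13 replicate 2. Counts per gene do not separate RIBEYE from the CtBP2 transcript. Pclo, piccolo, had 37.1 and 54.3 CPM at P13 and 107 and 74.6 CPM at P7. The change of -0.99 ± 0.27 passed the adjusted p (0.0196) and was just under the fold threshold. It was called lower without rods P13 replicate 2 (-1.26), without rods P7 replicate 2 (-1.25), with plain totals (-1.32) and with quantile normalization (-1.01). Bsn, bassoon, had 30.3 and 18.2 CPM at P13 and 33.5 and 33.4 CPM at P7, a change of -0.51 ± 0.29.

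Of 49 vesicle genes, 6 were called higher (12.2%) and 7 lower (14.3%), beside 5.62% and 7.02% of all genes. With plain totals 3 were called higher and 7 lower. Slc17a7, the vesicular glutamate transporter VGLUT1 (chr7:45163949-45176142, plus strand, GRCm38), had 770 and 710 CPM at P13, against 326 and 302 CPM at P7. The replicates of each age were close, and it rose by 1.24 ± 0.16 (adjusted p = 0.000123). The call ended with plain totals (0.91) and with quantile normalization (0.93), where the change was under the fold threshold. The complexins, which bind the assembled SNARE fusion complex, had members called in both directions. Cplx4, a ribbon synapse complexin, had 911 and 1092 CPM at P13, against 257 and 184 CPM at P7, and rose by 2.19 ± 0.28 (adjusted p = 0.000127). Cplx3, also found at retinal ribbon synapses, had 102 and 84.0 CPM at P13, against 251 and 284 CPM at P7, and fell by 1.53 ± 0.22 (adjusted p = 0.000346). Cplx2, a complexin of conventional synapses, had 29.5 and 7.07 CPM at P13, against 200 and 311 CPM at P7, and fell by 4.11 ± 0.69 (adjusted p = 0.00103).

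Amph, amphiphysin, which bends membrane in endocytosis, had 329 and 493 CPM at P13, against 159 and 101 CPM at P7, and rose by 1.67 ± 0.26 (adjusted p = 0.000581). Cltb, a clathrin light chain, had 0.808 and 11.7 CPM at P13, against 87.8 and 115 CPM at P7. The P13 libraries differed widely from each other, yet both lay below P7, and Cltb fell by 5.02 ± 0.82 (adjusted p = 0.000856). Nsf, the ATPase that takes SNARE complexes apart, had 857 and 696 CPM at P13 and 456 and 353 CPM at P7. Its 0.94 ± 0.18 (adjusted p = 0.00296) missed the fold threshold. It was called without rods P13 replicate 2 (1.09), without rods P7 replicate 1 (1.13) and without mitochondrial genome transcripts (1.01).

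Of 54 genes of the synaptic cleft and surface, 5 were called higher (9.26%) and 8 lower (14.8%), beside 5.62% and 7.02% of all genes. Their median log2 change was -0.29, and 3 were called higher and 12 lower with plain totals. Tenm4, a teneurin, one of the large transmembrane proteins that pair cells across the cleft (chr7:96171246-96911093, plus strand, GRCm38), had no reads in either P13 library, against 53.8 and 34.4 CPM at P7. Taking 3 reads over the P13 group as the floor, it was at least 1003-fold lower at P13 (adjusted p = 1.98e-12). Another teneurin, Tenm2, had 2.32 and 10.5 CPM at P13, against 0.120 and 0.0438 CPM at P7, and rose by 5.94 ± 1.13 (adjusted p = 0.00247). The teneurins thus had a member called in each direction. Cadm3, an immunoglobulin adhesion protein, had 11.3 and 4.43 CPM at P13, against 52.9 and 86.3 CPM at P7, and fell by 3.25 ± 0.34 (adjusted p = 2.09e-05). Ptprs, a presynaptic receptor phosphatase, had 13.1 and 37.3 CPM at P13, against 74.8 and 123 CPM at P7, and fell by 2.11 ± 0.39 (adjusted p = 0.00221). Lrrtm2, a leucine-rich neurexin ligand, had 7.24 and 11.1 CPM at P13, against 0.100 and 1.14 CPM at P7, and rose by 4.68 ± 0.97 (adjusted p = 0.00446). Array quality weights ended the calls of Cabp4, Rims2, Slc17a7, Cplx4, Tenm2, Ptprs and Lrrtm2.

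**Figure D3:**
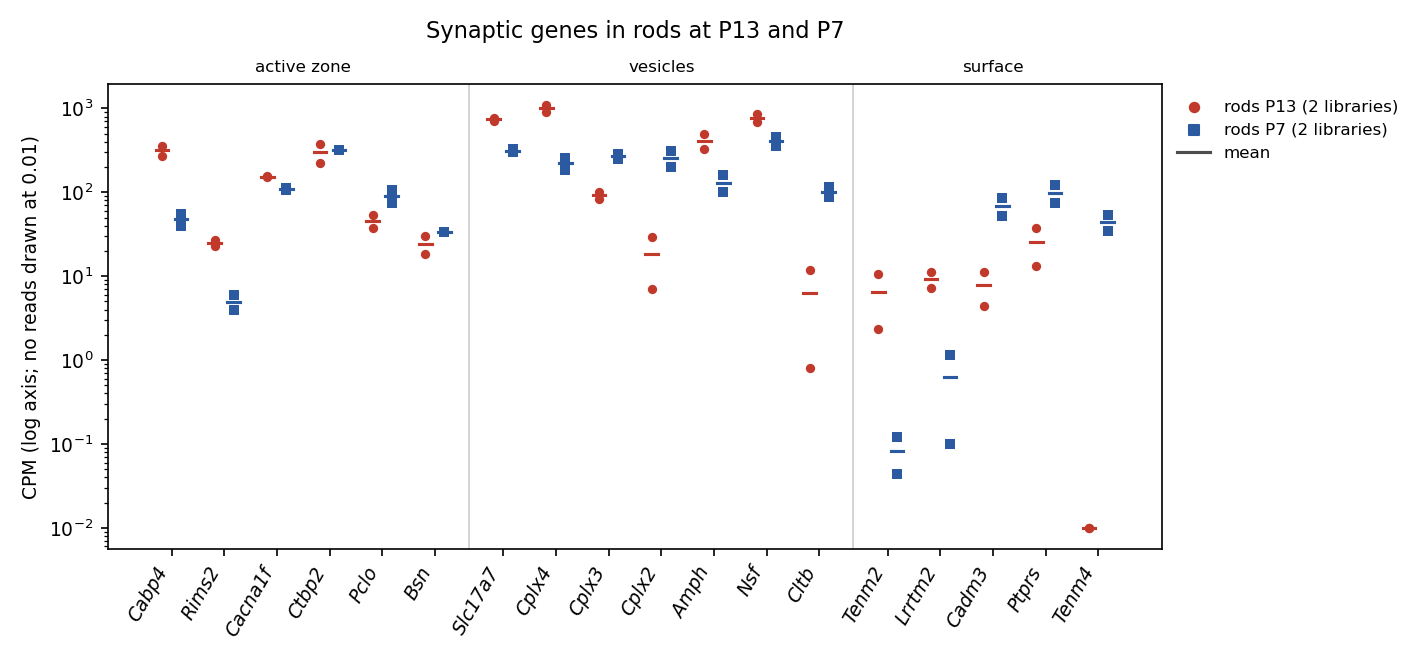
CPM (log axis) of synaptic genes in each rod library, P13 (red circles) left of P7 (blue squares), bars at the mean of 2 libraries, and values without reads drawn at 0.01. Cplx4 is above and Cplx3 and Cplx2 are below their P7 values, and Tenm4 has no reads at P13.

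Of 49 genes of the immature neuron, 9 were called lower (18.4%) and 2 higher (4.08%), beside 7.02% and 5.62% of all genes. Their median log2 change was -0.99, and 15 were called lower and 2 higher with plain totals. Stmn1, the microtubule-destabilizing protein stathmin (chr4:134468320-134473843, plus strand, GRCm38), had 5.97 and 21.5 CPM at P13, against 221 and 187 CPM at P7. Both P13 libraries were far below P7, and it fell by 4.16 ± 0.46 (adjusted p = 3.28e-05). Marcks, which ties the membrane to actin in growing neurites, had 86.4 and 49.3 CPM at P13, against 374 and 281 CPM at P7, and fell by 2.31 ± 0.30 (adjusted p = 0.000154). L1cam, an axonal adhesion protein, had 0.0351 and 0.0252 CPM at P13, against 2.27 and 9.87 CPM at P7. With 2 reads in all at P13, the ratio of P7 over P13 was 201.1 (95% interval 55.4 to 1665, counting error only). Map2, a microtubule protein of dendrites and cell bodies, was an exception within the list, with 836 and 711 CPM at P13, against 361 and 198 CPM at P7, and rose by 1.53 ± 0.25 (adjusted p = 0.000963). Dcx, doublecortin, had 3.20 and 0.201 CPM at P13 and 0 and 0.833 CPM at P7. It was near the limit of detection at both ages and was not called (adjusted p = 0.403), with an estimate of 3.39 ± 2.53 that was -0.04 without rods P7 replicate 1.

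Of 55 axon guidance genes, 14 were called lower (25.5%) and 1 higher (1.82%), beside 7.02% and 5.62% of all genes. Their median log2 change was -0.95. Sema5b, a semaphorin with thrombospondin repeats, had no reads at P13, against 6.88 and 4.58 CPM at P7, and was at least 130-fold lower at P13 (adjusted p = 0.00107). Unc5b, a netrin receptor, had no reads at P13, against 3.97 and 3.20 CPM at P7, and was at least 81.5-fold lower (adjusted p = 0.0026). Robo3, a member of the slit receptor family, had 0.0351 and 0 CPM at P13, against 1.48 and 1.75 CPM at P7. With 1 read at P13 the ratio of P7 over P13 was 110 (95% interval 19.5 to 4374, counting error only), and the call ended with quantile normalization (adjusted p = 0.059). L1cam, Map2, Unc5b and Robo3 lost their calls once libraries were weighted by quality.

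Retinal progenitor and Notch genes showed a median log2 change of -1.51. Called were 7 of 24 lower (29.2%) and 1 higher (4.17%), beside 7.02% and 5.62% of all genes. Six3, an eye field homeobox factor, had 28.4 and 4.93 CPM at P13, against 110 and 77.4 CPM at P7, and fell by 2.96 ± 0.51 (adjusted p = 0.00125). Its relative Six6 had 17.5 and 10.7 CPM at P13, against 48.7 and 54.8 CPM at P7, and fell by 1.92 ± 0.27 (adjusted p = 0.000274). Hes6, a bHLH protein of differentiating neurons, had 45.0 and 37.2 CPM at P13, against 175 and 113 CPM at P7, and fell by 1.78 ± 0.31 (adjusted p = 0.00149). Hey1, a Notch effector, had 4.99 and 0.0252 CPM at P13, against 37.3 and 23.9 CPM at P7. The 2 P13 libraries were far apart, and it fell by 6.21 ± 1.42 (adjusted p = 0.00818). Lhx2, a LIM homeobox factor of progenitors and glia, had no reads at P13, against 4.49 and 6.75 CPM at P7, and was at least 128-fold lower at P13 (adjusted p = 0.00126). The Notch ligand Jag1 was the member called higher, with 150 and 107 CPM at P13, against 40.2 and 35.4 CPM at P7, a rise of 1.75 ± 0.31 (adjusted p = 0.0015). Its call ended with quantile normalization (1.53, adjusted p = 0.0594).

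The cell cycle list had 5 of 35 members called lower (14.3%) and 1 higher (2.86%), beside 7.02% and 5.62% of all genes. Its median log2 change was -1.20. Cdkn1a, the cyclin-dependent kinase inhibitor p21, had no reads at P13, against 10.7 and 7.41 CPM at P7, and was at least 206-fold lower (adjusted p = 0.0087). As a brake on the cycle, it does not do what the list is named for. Pcna, the polymerase clamp of replication and repair, had 172 and 207 CPM at P13, against 86.1 and 77.2 CPM at P7. It rose by 1.21 ± 0.22 (adjusted p = 0.00185), and was under the fold threshold with plain totals (0.88) and with quantile normalization (0.98).

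In the cell death list 4 of 30 were called lower (13.3%) and 1 higher (3.33%), beside 7.02% and 5.62% of all genes. The called genes included members that promote death and members that oppose it. Hrk, a BH3-only activator of death, had 0.0351 and 0.0503 CPM at P13, against 5.44 and 3.20 CPM at P7. With 3 reads at P13 the ratio of P7 over P13 was 99.3 (95% interval 33.7 to 484, counting error only), and the call ended with quantile normalization (adjusted p = 0.217). Bcl2l1, which encodes the survival protein Bcl-xL, had 19.5 and 21.0 CPM at P13, against 52.8 and 70.0 CPM at P7, and fell by 1.59 ± 0.30 (adjusted p = 0.0023). Xiap, an inhibitor of caspases, had 512 and 377 CPM at P13, against 170 and 137 CPM at P7, and rose by 1.52 ± 0.17 (adjusted p = 3.96e-05). With array quality weights the calls of Six6, Jag1, Cdkn1a, Pcna, Hrk and Bcl2l1 ended.

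**Figure D4:**
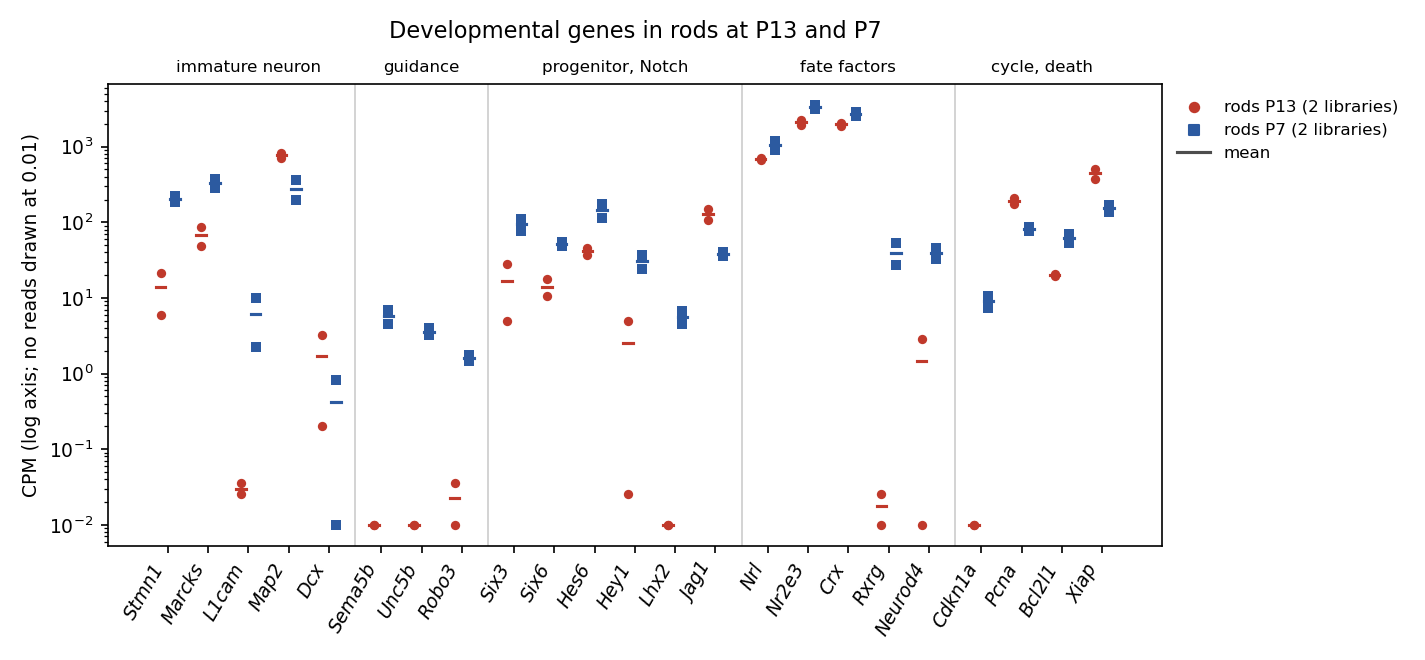
CPM (log axis) of developmental genes in each rod library, P13 (red circles) left of P7 (blue squares), bars at the mean of 2 libraries, and values without reads drawn at 0.01. Stmn1 and Rxrg are far below their P7 values, Nrl, Nr2e3 and Crx are slightly below, and Map2, Jag1, Pcna and Xiap are above.

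Mouse rods invert their chromatin after birth, with heterochromatin moving to the centre of the nucleus. Of 58 genes of nuclear architecture and chromatin, 7 were called lower (12.1%) and 1 higher (1.72%), beside 7.02% and 5.62% of all genes. The median log2 change was -0.06. Lbr, the lamin B receptor whose absence goes with that inversion, had 0.457 and 2.24 CPM at P13 and 0.862 and 5.68 CPM at P7. The libraries overlapped, and the change of -1.12 ± 1.33 was not called (adjusted p = 0.632). Its estimate was 0.01 without rods P13 replicate 1 and 0.23 without rods P7 replicate 2. Trim28, a corepressor that recruits heterochromatin proteins, had 98.6 and 101 CPM at P13, against 232 and 245 CPM at P7, and fell by 1.26 ± 0.15 (adjusted p = 6.43e-05). Among the nucleosome-binding HMGN proteins, Hmgn1 had 7410 and 9496 CPM at P13, against 3744 and 2738 CPM at P7, and rose by 1.39 ± 0.22 (adjusted p = 0.000581). Reads of Hmgn1 can be shared with its processed pseudogenes, and the call ended with quantile normalization (0.25). Hmgn5 had 7.41 and 3.60 CPM at P13, against 22.2 and 20.04 CPM at P7, and fell by 2.03 ± 0.33 (adjusted p = 0.000865). The calls of Hmgn1 and Hmgn5 ended with array quality weights. In the clock list 2 of 19 were called higher (10.5%, beside 5.62% of all genes) and none lower, by limma and by voom. At an unadjusted p under 0.05, 3 clock genes were higher and 1 lower. Nr1d2, the repressor REV-ERB beta, had 366 and 299 CPM at P13, against 127 and 92.3 CPM at P7, and rose by 1.61 ± 0.22 (adjusted p = 0.000201). The hour of collection was not stated in the labels used here.

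Photoreceptors feed mainly on glucose and export lactate. Of 32 glycolysis genes, 6 were called higher (18.75%) and 1 lower (3.125%), beside 5.62% and 7.02% of all genes. Their median log2 change was 0.34. Hk2, the hexokinase bound to mitochondria in photoreceptors, had 48.6 and 47.5 CPM at P13, against 7.84 and 4.03 CPM at P7, and rose by 3.09 ± 0.34 (adjusted p = 3.34e-05). Pfkfb2, which makes the activator of phosphofructokinase, had 452 and 340 CPM at P13, against 60.3 and 46.5 CPM at P7, and rose by 2.89 ± 0.25 (adjusted p = 3.22e-06). Its relative Pfkfb3 had 2.78 and 8.25 CPM at P13 and no reads at P7, and was at least 175-fold higher at P13 (adjusted p = 0.000195). Slc16a1, the lactate transporter MCT1, had 90.2 and 89.6 CPM at P13, against 9.73 and 3.31 CPM at P7, and rose by 3.98 ± 0.80 (adjusted p = 0.0035). Pfkm, the muscle-type phosphofructokinase, was the member called lower, with 1.30 and 4.13 CPM at P13, against 7.70 and 11.4 CPM at P7. It fell by 2.01 ± 0.41 (adjusted p = 0.00419), and the call ended in voom on the recovered reads (adjusted p = 0.0809). Under array quality weighting, Slc16a1 and Pfkm were no longer called.

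The respiratory chain is built from subunits encoded in the mitochondrial genome and in the nucleus. Of 10 mitochondrial genes tested, 7 were called higher (70%) and none lower, with a median log2 change of 1.77. Of 77 nuclear respiratory chain genes none was called higher and 4 lower, with a median of -0.12. The nuclear share called lower was 5.19%, under the 7.02% of all genes tested. None was called higher, beside 5.62% of all genes. At an unadjusted p under 0.05, 8 mitochondrial genes were higher and 0 lower and 10 nuclear genes higher and 16 lower, and voom called the same numbers as limma in both lists. Of the nuclear genes 14 were called lower with plain totals, 8 with quantile normalization and 0 with array quality weights. Of the mitochondrial genes 4 were called higher with quantile normalization and 1 with array quality weights. mt-Nd4, a complex I subunit, had 15927 and 14904 CPM at P13, against 4387 and 3269 CPM at P7, and rose by 2.02 ± 0.28 (adjusted p = 0.000234). mt-Cytb, of complex III, had 26244 and 29350 CPM at P13, against 9104 and 7566 CPM at P7, and rose by 1.74 ± 0.28 (adjusted p = 0.000867). The mt-Cytb call ended with quantile normalization (0.52, adjusted p = 0.0827). mt-Nd2, another complex I subunit, had 4709 and 4460 CPM at P13, against 1188 and 1464 CPM at P7, and rose by 1.80 ± 0.29 (adjusted p = 0.000708). Atp5d, the delta subunit of ATP synthase and a nuclear gene, had 56.2 and 64.3 CPM at P13, against 121 and 151 CPM at P7, and fell by 1.17 ± 0.21 (adjusted p = 0.00196). Weighting the libraries by quality ended the calls of mt-Cytb, mt-Nd2 and Atp5d.

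Among 27 inner segment pumps and channels, 4 were called higher (14.8%) and 2 lower (7.41%), beside 5.62% and 7.02% of all genes. The median log2 change was 0.00. Kcnj14, an inward rectifier potassium channel, had 101 and 85.6 CPM at P13, against 3.95 and 3.64 CPM at P7, and rose by 4.61 ± 0.75 (adjusted p = 0.000867). Atp1b3, a beta subunit of the sodium pump, had 47.9 and 34.1 CPM at P13, against 3.79 and 4.93 CPM at P7, and rose by 3.22 ± 0.42 (adjusted p = 0.000129). Itpr1, a calcium release channel of the endoplasmic reticulum, had 12.4 and 22.9 CPM at P13, against 0.120 and 0 CPM at P7, and rose by 9.12 ± 0.97 (adjusted p = 2.17e-05), a size that depends on the floor.

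Of 42 lipid synthesis genes, 6 were called lower (14.3%) and 3 higher (7.14%), beside 7.02% and 5.62% of all genes. The median log2 change was -0.16. Srebf1, the regulator of fatty acid synthesis, had 28.1 and 29.5 CPM at P13, against 110 and 158 CPM at P7, and fell by 2.19 ± 0.27 (adjusted p = 8.66e-05). Fads1, a desaturase of polyunsaturated fatty acids, had 5.24 and 12.7 CPM at P13, against 45.8 and 36.0 CPM at P7, and fell by 2.32 ± 0.41 (adjusted p = 0.00149). Adipor1, a receptor needed in mice for retinal docosahexaenoic acid, had 304 and 260 CPM at P13, against 93.8 and 106 CPM at P7, and rose by 1.5 ± 0.18 (adjusted p = 6.32e-05). Array quality weights ended the call of Kcnj14.

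The largest rises and falls included secreted factors and regulators outside the lists. Sgk1, a kinase under steroid hormone control, had 16.2 and 19.6 CPM at P13 and no reads at P7, and was at least 570-fold higher at P13 (adjusted p = 6.30e-08). Apela, a peptide ligand of the apelin receptor, had 23.2 and 33.4 CPM at P13 and no reads at P7, and was at least 900-fold higher (adjusted p = 0.000549). Fgf2, a growth factor that protects photoreceptors in rodent models, had 70.0 and 47.7 CPM at P13, against 0.100 and 0 CPM at P7, and rose by 11.01 ± 0.95 (adjusted p = 2.99e-06). Gpsm2, a regulator of G protein signalling and spindle orientation, had 199 and 135 CPM at P13, against 0.401 and 2.30 CPM at P7, and rose by 7.40 ± 0.51 (adjusted p = 3.71e-07). Dzank1, a ciliary protein, had 86.0 and 32.3 CPM at P13, against 0.602 and 0 CPM at P7, and rose by 9.63 ± 1.84 (adjusted p = 0.00255). Aqp1, a water channel, had 21.0 and 14.3 CPM at P13, against 0 and 0.0438 CPM at P7. With 2 reads at P7 the ratio of P13 over P7 was 817 (95% interval 226 to 6752, counting error only).

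Among the largest falls, Moxd1, a monooxygenase-like protein, had no reads at P13, against 23.2 and 35.4 CPM at P7, and was at least 667-fold lower (adjusted p = 0.00101). Rcor2, a corepressor of neural progenitors, had 0.0351 and 0 CPM at P13, against 24.9 and 57.6 CPM at P7. With 1 read at P13 the ratio of P7 over P13 was 2764 (95% interval 496 to 109181, counting error only). Gdf11, a secreted signal that limits neuron production in the retina, had 0 and 0.0252 CPM at P13, against 24.2 and 12.2 CPM at P7. With 1 read at P13 the ratio was 1262 (interval 226 to 49892). Inhbb, an activin subunit, had 0.703 and 0 CPM at P13, against 66.3 and 47.6 CPM at P7, and fell by 9.61 ± 1.32 (adjusted p = 0.000224). Enox2, a surface oxidase, had 0.176 and 0 CPM at P13, against 19.4 and 29.7 CPM at P7, and fell by 9.36 ± 1.04 (adjusted p = 3.30e-05). In rods at postnatal day 30, Enox2 was back at 18.2 ± 10.9 CPM (SD, n = 2 libraries). Moxd1, Rcor2, Gdf11 and Inhbb had means of 1.24 CPM or less there. The fitted sizes for Fgf2, Dzank1, Inhbb and Enox2 depend on the floor set for a library without reads. Aqp1 and Moxd1 lost their calls once libraries were weighted by quality.

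A further set was chosen after its values were seen, as abundant genes with close replicates. Epas1, the hypoxia-inducible factor HIF-2 alpha, had 369 and 343 CPM at P13, against 11.8 and 7.12 CPM at P7, and rose by 5.28 ± 0.60 (adjusted p = 3.87e-05). Slc6a6, the taurine transporter, had 975 and 688 CPM at P13, against 70.4 and 73.5 CPM at P7, and rose by 3.51 ± 0.18 (adjusted p = 3.12e-08). Taurine is abundant in the retina and its loss kills photoreceptors. Tnfaip3, an inhibitor of NF-kappaB signalling, had 254 and 244 CPM at P13, against 17.7 and 14.8 CPM at P7, and rose by 3.94 ± 0.47 (adjusted p = 5.89e-05). The retinal genes Rtbdn, a riboflavin-binding protein, and Mgarp, a mitochondrial protein, rose by 1.67 ± 0.33 and 1.74 ± 0.20.

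Of the falls chosen in the same way, Arhgap31, a GTPase-activating protein for Cdc42 and Rac1, had 48.8 and 60.6 CPM at P13, against 506 and 653 CPM at P7, and fell by 3.40 ± 0.19 (adjusted p = 4.67e-08). Igsf21, a synaptic adhesion protein, had 11.4 and 15.6 CPM at P13, against 116 and 105 CPM at P7, and fell by 3.05 ± 0.28 (adjusted p = 5.51e-06). Slc6a8, the creatine transporter, had 27.9 and 20.7 CPM at P13, against 153 and 107 CPM at P7, and fell by 2.42 ± 0.24 (adjusted p = 1.11e-05). Ckb, the brain creatine kinase, fell by 1.39 ± 0.26 (adjusted p = 0.00247), with 391 and 480 CPM at P13, against 915 and 1406 CPM at P7. Camk2b, Mycn, Ndn and the granin Chgb fell by 2.44, 2.19, 2.17 and 1.29, with no overlap between ages. With array quality weights the calls of Epas1, Rtbdn, Ckb, Mycn and Chgb ended.

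Of 14 cone phototransduction genes, 4 were called higher (28.6%) and 3 lower (21.4%), beside 5.62% and 7.02% of all genes. Gngt2, the transducin gamma subunit of cones, had 7.84 and 22 CPM at P13, against 319 and 265 CPM at P7, and fell by 4.47 ± 0.41 (adjusted p = 5.55e-06). Gnb3, the cone transducin beta subunit, had 85.0 and 122 CPM at P13, against 295 and 408 CPM at P7, and fell by 1.77 ± 0.22 (adjusted p = 0.000105). Arr3, cone arrestin, had 4.22 and 29.99 CPM at P13, against 0.0201 and 0.614 CPM at P7, and rose by 6.43 ± 1.53 (adjusted p = 0.0103). Its call ended without rods P13 replicate 2 (5.02, adjusted p = 0.0826) and without rods P7 replicate 1 (4.18, adjusted p = 0.106). Pde6h, the inhibitory subunit of the cone phosphodiesterase, had 5.69 and 48.8 CPM at P13, against 1.00 and 1.42 CPM at P7, and rose by 3.79 ± 0.73 (adjusted p = 0.00259). Arr3 and Pde6h were both far higher in P13 replicate 2 than in P13 replicate 1. The calls of Arr3 and Pde6h ended with array quality weights.

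None of 12 amacrine and 12 ganglion cell genes was called by limma, 3 and 2 had an unadjusted p under 0.05, all higher, and voom called 0 and 1. The 13 vascular genes summed to 30.4 and 56.6 CPM at P13 and to 7.72 and 14.7 CPM at P7, with 3 called higher, beside 5.62% of all genes. Of these, 2 were called with plain totals, 1 with quantile normalization and 0 with array quality weights. The 10 pigment epithelium genes summed to 79.8 and 67.5 CPM at P13 and to 36.5 and 48.5 CPM at P7. Among them 2 were called higher (20%, beside 5.62% of all genes). The 8 horizontal cell genes summed to 851 and 910 CPM at P13 and to 1373 and 1496 CPM at P7. Of the 8, 1 was called higher (12.5%) and 1 lower (12.5%), beside 5.62% and 7.02% of all genes. The part of these cells in the results was not tested. The 14 microglial genes summed to 70.4 and 31.9 CPM at P13 and to 15.6 and 60.9 CPM at P7, with overlap between ages. Of the 14, 1 was called lower (7.14%, beside 7.02% of all genes). Among 28 immediate early and stress genes, 4 were called higher (14.3%) and 4 lower (14.3%), beside 5.62% and 7.02% of all genes. The sum of the 28 was 3202 and 3950 CPM at P13 and 2970 and 2944 CPM at P7. Egr1, an immediate early factor, had 274 and 372 CPM at P13, against 28.4 and 25.7 CPM at P7, and rose by 3.56 ± 0.90 (adjusted p = 0.0143). Its call ended without rods P13 replicate 2 (3.34, adjusted p = 0.0642), without rods P7 replicate 2 (3.49, adjusted p = 0.0765) and with array quality weights. Of 81 cytosolic ribosomal protein genes none was called higher and 2 lower (2.47%), beside 5.62% and 7.02% of all genes. An unadjusted p under 0.05 was reached by 4 that were higher and 9 that were lower. Voom called 1 higher and 2 lower, plain totals 0 and 7, and quantile normalization 0 and 5.

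Where the change in rods differed from that in cones was tested as the difference between the changes, which called 203 of 13405 genes (1.51%), 99 with a higher change in rods (0.739%) and 104 with a lower one (0.776%). The count depended on single libraries, and was 1176 without rods P13 replicate 1, 414 without rods P13 replicate 2, 100 without cones P7 replicate 1 and 76 without cones P7 replicate 2. Guca1b, called higher in rods, was in cones at 258 ± 42.0 CPM at P13 and 205 ± 49.7 CPM at P7 (SD, n = 2 libraries), and the changes differed by 5.90 ± 0.69 on the log2 scale (adjusted p = 0.000338). The cone transducin genes separated the other way, with differences of -5.34 ± 0.59 for Gngt2 (adjusted p = 0.000177) and -2.20 ± 0.32 for Gnb3 (adjusted p = 0.0014). Gpsm2 differed by 5.98 ± 0.73 (adjusted p = 0.000484). Pfkfb2 differed by 2.15 ± 0.36 (adjusted p = 0.00465) and Cadm3 by -2.55 ± 0.49 (adjusted p = 0.0139). Array quality weights ended the call of Guca1b (adjusted p = 0.112) and those of Pfkfb2 and Cadm3 (adjusted p = 0.078 each). In a fit of the compared groups alone the calls of Pfkfb2 and Gnb3 (adjusted p = 0.147 each), Gngt2 (0.124), Gpsm2 (0.186) and Cadm3 (0.269) ended. Cadm3 also lost its call without cones P7 replicate 2 (-2.35, adjusted p = 0.0936). Called differences of other genes that held in few alternatives are not described. For Gnat1 the difference was -0.11 ± 0.46 (adjusted p = 0.952), with 215 ± 21.5 CPM in cones at P13 and 5.11 ± 1.52 CPM in cones at P7. The cone libraries also held rod factors. Nrl stood there at 37.0 ± 1.94 CPM at P13 and 47.0 ± 18.4 CPM at P7, and Nr2e3 at 56.5 ± 18.6 and 111 ± 46.7 CPM. How much of the Gnat1 level in the cone libraries was rod RNA was not tested. The differences for Drd4 (3.58, adjusted p = 0.0507), Rcvrn (2.58, adjusted p = 0.0519) and Stmn1 (-2.55, adjusted p = 0.0648) were not called. Rcvrn was called without rods P13 replicate 1 (3.004, adjusted p = 0.0115), Stmn1 without rods P13 replicate 2 (-3.47, adjusted p = 0.00127), and Drd4 without rods P13 replicate 1 (3.79, adjusted p = 0.0257) and without cones P7 replicate 2 (4.47, adjusted p = 0.0249). All of them were called with a pseudocount of 1 CPM. Tenm4, without reads in rods at P13, stood at 67.7 ± 6.16 CPM in cones at P13 and 34.4 ± 1.46 CPM in cones at P7, and its changes differed (adjusted p = 1.19e-10).

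Against bipolars, the change differed for 844 genes (6.3%), 384 with a higher change in rods (2.86%) and 460 with a lower one (3.43%). Without rods P13 replicate 1 the count was 1929, and it was 300 without bipolars P13 replicate 2, 561 without rods P7 replicate 2, 499 without bipolars P13 replicate 1, 322 without bipolars P7 replicate 1 and 347 without bipolars P7 replicate 2. The change in rods exceeded that in bipolars for Drd4 (7.09 ± 0.86, adjusted p = 0.000189), Guca1b (3.71 ± 0.69, adjusted p = 0.00501), Grk1 (2.48 ± 0.48, adjusted p = 0.00701) and Rp1 (2.93 ± 0.60, adjusted p = 0.00899). The same held for Hk2 (4.31 ± 0.48, adjusted p = 0.000107), Pfkfb2 (2.72 ± 0.36, adjusted p = 0.000383) and mt-Nd4 (1.97 ± 0.40, adjusted p = 0.00854). Gpsm2, Amph and Hmgn1 differed by 7.74 ± 0.73, 2.28 ± 0.37 and 2.02 ± 0.30 in the same direction. Some of these genes were low in bipolars at both ages. Drd4 stood there at 4.85 ± 1.85 CPM at P13 and 2.09 ± 0.32 CPM at P7. Guca1b stood at 4.44 ± 0.52 CPM at P13 and 0.89 ± 0.66 CPM at P7, and Grk1 at 4.90 ± 0.62 and 8.61 ± 2.50 CPM. Whether such low levels came from bipolars or from RNA of other cells was not tested. The synaptic genes Cplx4 and Slc17a7 had smaller changes in rods than in bipolars, with differences of -2.56 ± 0.40 for Cplx4 (adjusted p = 0.00144) and -1.22 ± 0.22 for Slc17a7 (adjusted p = 0.00482). In bipolars Slc17a7 stood at 202 ± 18.9 CPM at P13 and 36.9 ± 5.56 CPM at P7, and Cplx4 at 88.3 ± 5.88 CPM at P13 and 3.48 ± 1.72 CPM at P7. Esrrg differed by -4.06 ± 0.44 (adjusted p = 8.03e-05). Array quality weights ended the calls of Guca1b (adjusted p = 0.159), Grk1 (0.0945), Rp1 (0.0821), Cplx4 (0.0951) and Slc17a7 (0.085), and voom those of Guca1b (0.195), Drd4 (0.0705), Grk1 (0.27), Rp1 (0.0907) and Cplx4 (0.124). With the compared groups alone the calls of Guca1b (0.071) and Cplx4 (0.0596) ended, and with quantile normalization those of Guca1b (2.43, adjusted p = 0.131) and mt-Nd4 (1.17, adjusted p = 0.072). The Rp1 call ended without bipolars P7 replicate 1 (2.63, adjusted p = 0.0551), and that of mt-Nd4 without bipolars P13 replicate 2 (1.89, adjusted p = 0.0567). Tenm4 stood at 98.7 ± 17.6 CPM in bipolars at P13 and 12.9 ± 1.52 CPM in bipolars at P7 (adjusted p of the difference 1.56e-11). The differences for Gnat1 (1.21, adjusted p = 0.133) and Stmn1 (-1.96, adjusted p = 0.0841) were not called. Gnat1 was called with a pseudocount of 1 CPM (1.89, adjusted p = 0.00717), and Stmn1 with plain totals (-2.27, adjusted p = 0.0307) and without rods P13 replicate 2 (-2.88, adjusted p = 0.00329).

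**Figure D5:**
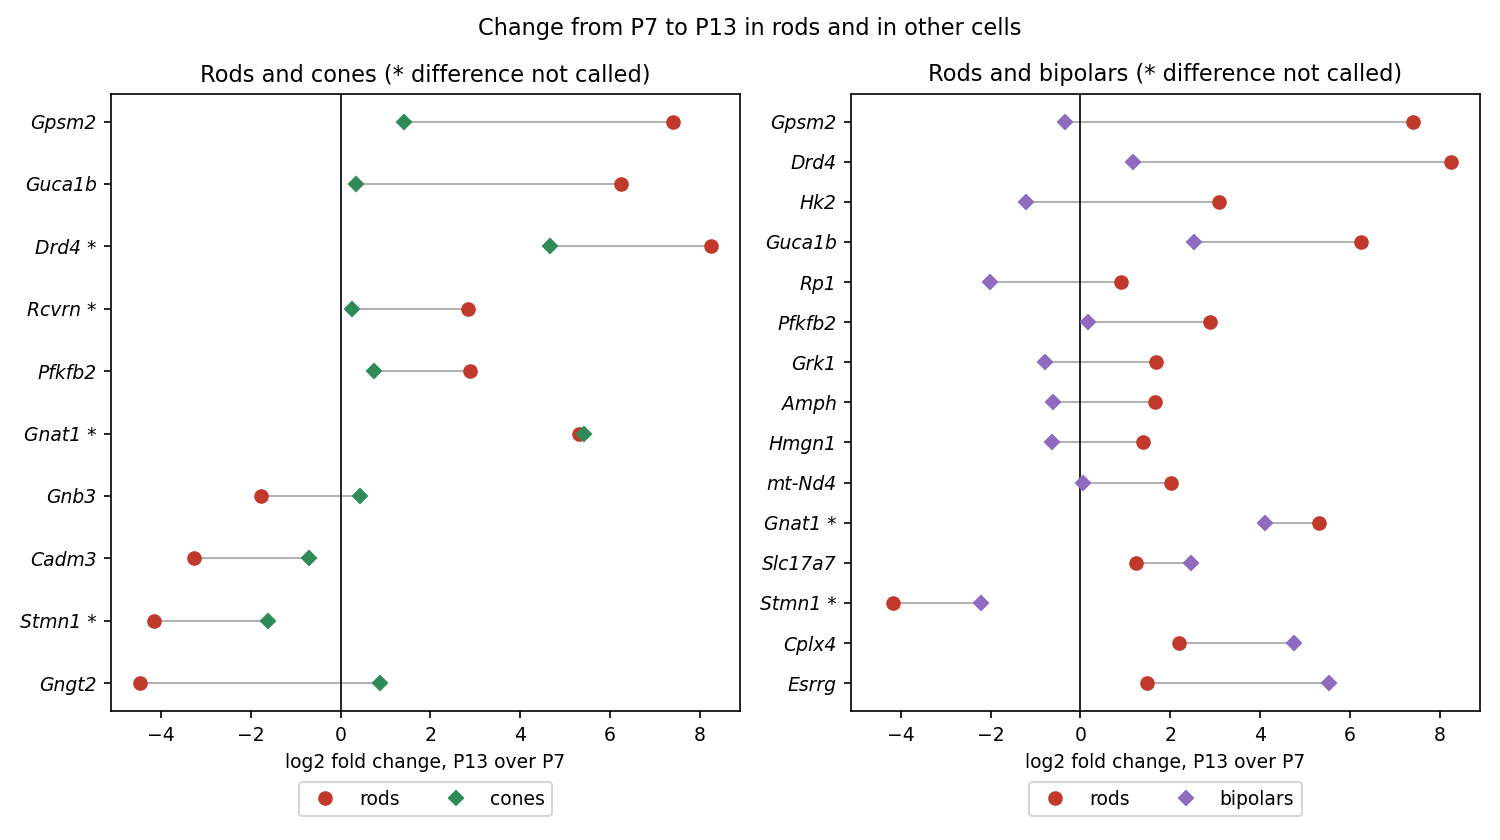
Log2 fold change of P13 over P7 in rods (red circles) beside that in cones (green diamonds, left panel) and bipolars (purple diamonds, right panel), 2 libraries per group and age, genes ordered by the difference and an asterisk where it was not called. Guca1b changed by 6.25 in rods and 0.34 in cones, and Gnat1 by 5.31 in rods and 5.42 in cones. The part of rod RNA in the cone libraries was not tested.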

How the data were processed

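The deposited table holds log2 CPM made by the authors for 13812 Ensembl genes and 22 libraries, and the unit is known from the file name and the values. The submitters' processing notes name STAR, edgeR and the build GRCm38 (mm10), without versions. The read counter, annotation, strand setting and gene filter were not given in the sources used here. Every column matched a labelled sample, and 0 columns had none. A gene without reads has the value -7.10. With that floor taken off, every value was a whole number of reads to a tolerance of 0.01, which gave the reads and totals used here; the deposited scaling was 0.908 and 0.82 times the totals at P13 and 1.05 and 1.12 times at P7. The floor of 3 reads over a group was 0.044 CPM at P13 and 0.0314 CPM at P7, and intervals and floors cover counting error only. GENCODE M21 gave symbols and positions for 13785 IDs, and the 27 others were left out.

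Tests used limma 3.58.1 in R 4.3.3 with an intensity trend, on 22 libraries in 11 groups (11 residual and 4.27 prior degrees of freedom). A gene entered the test where both libraries of some group had a log2 CPM of 0 or more, which kept 13405 and took out 380. The interactions came from the same fit. The count tests that need deposited counts were not used, and voom on the recovered reads was added after seeing the data. The steps were tested on simulated data.

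The members, the 34 lists, the tests and the rule for named genes were chosen with earlier results of these data known. The rule took the 15 largest rises and 15 largest falls among called genes that did not overlap and had a mean log2 CPM of at least 4 in the higher age, up to 8 called members per list, a fixed set, and the 8 largest per interaction. Genes that lost calls in several leave-one-out fits were mostly left out of the text, so the calls named in it are firmer than those in the lists. Some genes that the rule names are not reported here. Alternatives were other filters, a pseudocount of 1 CPM, plain totals, totals without the mitochondrial genome, quantile normalization, array quality weights, the replicate number as a block, the compared groups alone and each library left out. With a library left out, its group keeps 1 library, which is assumed to vary like the other groups.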

Additional observations from a re-analysis of the deposited data

Results flagged for a closer look

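These results are differences between cell types in the change of P13 over P7 on the log2 scale, each flagged because the test of the difference itself was past the threshold. No explanation was tested.

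Rods minus cones gave positive differences for Guca1b (5.90), Gpsm2 (5.98) and Pfkfb2 (2.15). Negative differences were those of Gngt2 (-5.34), Cadm3 (-2.55) and Gnb3 (-2.20).

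Rods minus bipolars gave positive differences for Gpsm2 (7.74), Drd4 (7.09), Hk2 (4.31), Guca1b (3.71), Rp1 (2.93), Pfkfb2 (2.72), Grk1 (2.48), Amph (2.28), Hmgn1 (2.02) and mt-Nd4 (1.97). Negative differences were those of Esrrg (-4.06), Cplx4 (-2.56) and Slc17a7 (-1.22). Of the differences given here, those from bipolars for Gpsm2, Hk2, Pfkfb2, Amph, Hmgn1 and Esrrg were called in every alternative run, and each of the others lost its call in at least 1 alternative.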

How the results depend on the processing

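The number of genes called between rods at P13 and P7 was 1695, 0 with the compared groups alone and 326 with array quality weights, and 1036 to 2742 when 1 library was left out. The difference from cones called 203 genes, 3 with the compared groups alone, 87 with quantile normalization and 73 with array quality weights, and 76 to 1176 with a library left out. The difference from bipolars called 844 genes, 368 with the compared groups alone, 1302 with a pseudocount of 1 CPM and 425 with array quality weights, and 300 to 1929 with a library left out. With plain totals the calls against bipolars split into 190 higher and 714 lower, against 384 and 460 as deposited. The causes of these shifts were not tested. The other filters, scalings and voom kept these counts within 1.5 times.

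Replicate numbers come from the sample titles and do not pair the libraries: deviations from the group means of same-numbered rod libraries correlated at -0.037 across genes. With a replicate block 2033 genes were called, which included all 1695, and 236 and 910 against cones and bipolars.

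Of the 97 called genes named, 93 were called with plain totals, 88 with quantile normalization and 50 with array quality weights. Of all 1695 calls, the numbers that held in these settings were 1410, 1075 and 326. Most of the 1695 did not hold in every fit with a rod library left out. The named genes were mostly those that kept their calls with a library left out. Their share therefore does not describe the calls as a whole. Quantile normalization turned the sign of 7 named genes that were not called on the deposited scale. Of these Pdc was then called lower (-1.33, adjusted p = 0.0252), and the others were not called, namely Pde6b (-0.042), Sag (-0.97), Prph2 (-0.58), Rom1 (-0.86), Cdhr1 (-0.47) and Neurod1 (-0.31). With plain totals Cdhr1 changed sign (-0.25). Over the fits with a library left out, Ctbp2 ran from -0.50 to 0.25, Dcx from -0.040 to 6.81 and Lbr from -2.48 to 0.23. Depth limits genes under about 1 CPM, where a few reads set the fold.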
